A study of Homo sapiens with 4 samples.

Results

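Interferon-stimulated and innate sensing genes were followed in MDA-MB-231, a triple-negative cell line from a breast carcinoma with mesenchymal features, in which the transcriptional repressor ZEB2 had been lowered. The 47 genes were named by function (antiviral effectors induced by interferon, factors of interferon signalling, sensors of foreign RNA). The list was chosen with earlier results of these data known, and its genes were read on Affymetrix U133 Plus 2 arrays. Of these, 46 had a probe set annotated with exactly 1 gene symbol, among 19775 such genes in all, and each was represented by its brightest probe set. STAT2 was not analysed here. A filter on low values kept 15082 genes whose highest log2 value reached 4.77, the 40th percentile of all values. It kept 44 of the 46 measured members and left out CMPK2 and IFI44L.

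Interferons are secreted proteins that bind receptors on the cell surface and, through JAK kinases, activate transcription factors that enter the nucleus and bind the interferon-stimulated response element (ISRE) in promoters. The genes so induced include sensors of double-stranded RNA (RIGI, IFIH1, the OAS enzymes), proteins that bind viral RNA (the IFIT family), the ubiquitin-like protein ISG15, and effectors such as MX1 and RSAD2. Many are themselves part of the sensing pathway, and some are induced directly by IRF factors without interferon.

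The study held 4 cultures of this line with 1 array each. The shRNA control carried the empty vector pLVTH and shZEB2 carried a ZEB2 short hairpin RNA, both as stably transduced lines. The siLUC control was transfected with siRNA against luciferase, which has no target in human cells, and the siZEB2 pool with siRNA against ZEB2, both at 20 nM with the Dharmafect reagent. The transfected cultures were washed after 24 hours and kept for 48 hours in medium before harvest, and all 4 cultures shared the same parental line and medium. Labelling started from 2 µg of total RNA for the shRNA arrays and from 100 ng for the siRNA arrays. Stable against transient delivery, hairpin vector against siRNA and RNA input therefore cannot be told apart in any comparison across the methods. The labels do not say whether a stable line was a clone or a pool, or how many siRNAs the pools held. With 1 array per group there is no replicate behind any of the pairwise differences, and 4 arrays allow only coarse precision. Differences are of log2 values (1 unit is 2-fold), and a count at 2-fold is a description.

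ZEB2, the target, read 6.12 in the shRNA control, 3.52 in shZEB2, 6.56 in the siLUC control and 3.51 in the siZEB2 pool in its brightest probe set, lower on both knockdown arrays. Array medians lay between 5.34 and 5.37. Of the markers of the line, KRT8, KRT18, VIM, CD44 and EGFR all read between 10.6 and 14.1 on every array. PGR, the progesterone receptor, stayed under the filter level, and ESR1, the estrogen receptor, read between 6.08 and 6.54 on a probe set of the cross-hybridising class. Of 9 leukocyte markers 7 were measured, and their summed log2 level was 35.2 in the shRNA control, 34.2 in shZEB2, 35.2 in the siLUC control and 35.9 in the siZEB2 pool. PTPRC, the pan-leukocyte surface phosphatase, and the B-cell gene MS4A1 stayed under the filter level on every array, and CD3E, CD3D, ITGAM, NCAM1 and CD14 passed the filter. The monocyte gene CD14 was higher on the siRNA arrays, at 5.21 in the shRNA control, 4.98 in shZEB2, 7.30 in the siLUC control and 6.94 in the siZEB2 pool, and its part in the results was not tested. Of the 4 markers of fibroblasts and endothelium, summing to between 21.0 and 23.1, the endothelial gene CDH5 stayed under the filter level on every array, and PECAM1, PDGFRB and DCN passed the filter. PECAM1, also an endothelial gene, read 6.41, 5.72, 6.77 and 6.98 in the order of arrays above, and PDGFRB, a fibroblast and pericyte receptor, 5.78, 6.28, 6.58 and 6.70. Their part in the results was not tested.

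By their median, the interferon-stimulated genes were lower in the stable ZEB2 knockdown than in its vector control, close to level in the transient knockdown, and higher in siLUC cells than in cells with the empty hairpin vector. In the stable pair 12 of the 44 members past the filter were at least 2-fold lower, against 2.08% of all genes, and 13 of the 46 measured members when the filter was left out. BST2 alone was at least 2-fold higher, where the share over all genes was 2.39%. The median difference of the measured members was -0.41 in this pair, beside -0.024 over all genes past the filter. At a lower bar of 1.5-fold, 20 of the 44 were lower (7.11% of all genes) and 3 were higher, BST2, MX1 and IFI27 (7.55%). At 3-fold, OASL, IFIT1 and SAMD9 were lower (0.564% of all genes) and 0 were higher (0.835%). Below 0 lay 36 of the 46 measured members and above it 10, with 46.6% of all genes above 0. In the transient pair 0 of the 46 measured members were 2-fold apart either way, where 0.126% of all genes were 2-fold lower and 0.0464% higher. The member with the largest difference there was MX2, at -0.60, the only one past 1.5-fold, where 1.51% of all genes were at least 1.5-fold lower. In that pair no member was 1.5-fold higher by its brightest probe set, where 0.69% of all genes were. A dimmer GBP1 probe set was, at 0.93. The median of the members was -0.055 in the transient pair and that of all genes -0.018. At 3-fold 0 members were lower (0.0265% of all genes) or higher (0%), and 15 of the 46 lay above 0 (46% of all genes). Both knockdown differences were below 0 for 25 of the 46 measured members, against 27.8% of all genes. With 36 of the 46 below 0 in the stable pair and 31 in the transient pair, this overlap follows largely from those counts. It is not a separate sign of agreement between the pairs.

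Between the controls, both of which keep ZEB2, 21 of the 44 members were at least 2-fold higher in the siLUC control, against 10.8% of all genes. GBP1 alone was 2-fold lower, against 4.99% of all genes. The members' median was 0.88, beside 0.056 over all genes. At 1.5-fold 29 of the 44 were higher (21.9% of all genes) and 2 were lower, GBP1 and IFIT5 (12.1%). At 3-fold 8 were higher (4.17%) and 0 lower (1.49%), and 36 of the 46 measured members lay above 0, against 54% of all genes. This comparison and the stable pair share the shRNA control array, so that array's value enters both, with the same sign. Ranking the 4 arrays gene by gene uses no subtraction: the shZEB2 array was the lowest of the 4 for 31 of the 46 measured members (29 of the 44 past the filter), against 28.7% of all genes. Both siRNA arrays lay above both shRNA arrays for 33 of the 46 measured members (32 of 44), where this held for 39.2% of all genes. Both lay below both for 4 of the 46, against 27.5%. The order shZEB2, then the shRNA control, then the siLUC control was seen for 26 of the 46 measured members and for 20.5% of all genes. This order combines the signs of the 2 differences that share the shRNA control array. The stable difference was below 0 for 36 of the 46 and the control difference above 0 for 36, so the order is not a separate result.

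**Figure D1:**
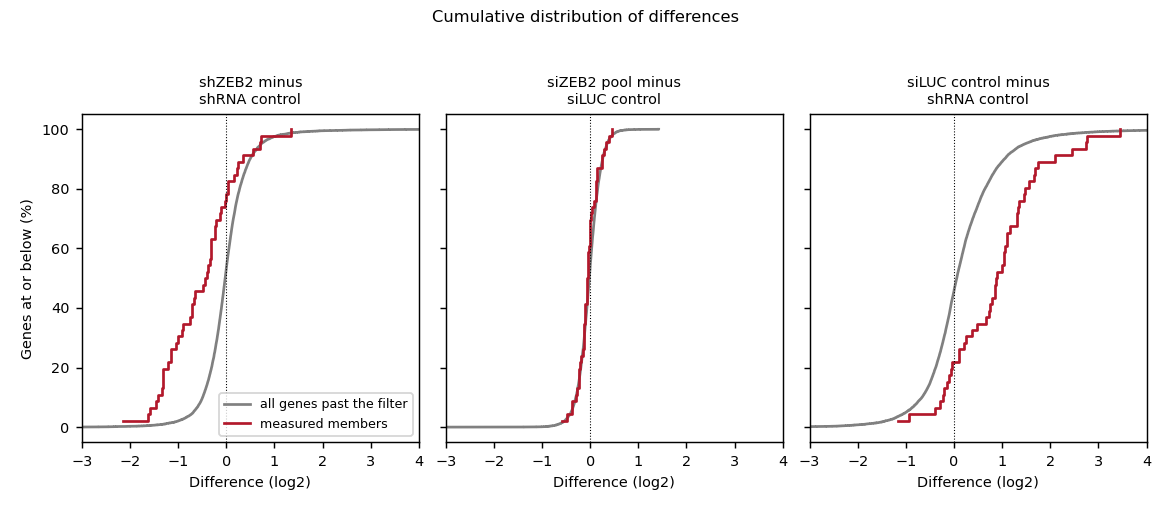
Cumulative share of genes (%) against the difference in log2 units, for the 46 measured members (red) and the 15082 genes past the filter (grey), in the 3 comparisons. The members lie to the left of all genes in the stable pair (median -0.41), on top of them in the transient pair (median -0.055) and to the right of them between the controls (median 0.88); the axes stop at -3 and 4, beyond which a few other genes lie.

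The promoters of the members were read for the ISRE. The members were chosen as genes of the interferon response, which acts through this element, so a raised share follows largely from that choice. RefSeq promoter windows of GRCh38.p14, from 250 bases before to 50 bases after each annotated gene start, were found for 36 of the 46 measured members. They were searched for the ISRE core, a pair of GAAA copies with any 2 bases between them (on the other strand, a pair of TTTC copies spaced alike), and 26 of the 36 members held it in at least 1 window. Counted by window, 30 of 47 member windows held it (63.8%), against 3.57% of all 35116 windows. The gamma-activated site TTCNNNGAA (GAS, the same on both strands), was in 14 of the 47 member windows (29.8%) and in 7.66% of all. A match is a stretch of letters, not a bound site. Below are the stretches around the match nearest the gene start for 7 members that were 2-fold lower in the stable knockdown (IFIT1 to IFI44), for BST2, the member 2-fold higher there, and for ISG15 and IFI27, which were 2-fold apart between the controls alone. Each runs 5′ to 3′ on the gene's own strand and ends before the gene start, with every match in capitals.
IFIT1, chr10:89392505-89392544 (+ strand): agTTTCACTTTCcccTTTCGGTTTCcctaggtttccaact
IFIT3, chr10:89327860-89327899 (+ strand): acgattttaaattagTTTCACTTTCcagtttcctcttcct
DDX60, chr4:168318781-168318820 (- strand): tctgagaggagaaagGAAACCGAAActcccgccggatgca
SAMD9, chr7:93118091-93118130 (- strand): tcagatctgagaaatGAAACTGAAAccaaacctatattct
HERC5, chr4:88457030-88457069 (+ strand): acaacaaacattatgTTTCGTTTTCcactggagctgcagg
ISG20, chr15:88638932-88638971 (+ strand): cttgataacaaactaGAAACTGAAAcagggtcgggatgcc
IFI44, chr1:78649756-78649788 (+ strand): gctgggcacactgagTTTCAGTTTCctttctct
BST2, chr19:17405730-17405769 (- strand): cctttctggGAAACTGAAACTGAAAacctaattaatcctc
ISG15, chr1:1013375-1013414 (+ strand): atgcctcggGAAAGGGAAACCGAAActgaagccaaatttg
IFI27, chr14:94110626-94110665 (+ strand): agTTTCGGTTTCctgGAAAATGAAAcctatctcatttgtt

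The match stood 103 bases before the start in IFIT1, 53 in DDX60 and 18 in IFI44, and BST2 had its match at 124 bases, so members with opposite differences shared the core. In the stable pair the 26 members with the core had a median difference of -0.66, with 9 of them 2-fold lower. The 10 members whose windows lacked it had a median of -0.28, with 1 of them 2-fold lower, HERC6. The remaining 10 measured members, with no window in the table, had a median of -0.35, with 3 of them 2-fold lower, OASL among them. Between the controls the order was not the same, with medians of 0.94 with the core and 1.02 without. Outside the member list, 445 genes past the filter held the core, the target ZEB2 among them. In the stable pair 2.47% of these were 2-fold lower and 2.47% 2-fold higher. Of the 11505 genes whose windows lacked the core, 1.97% were lower and 2.36% higher.

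**Figure D2:**
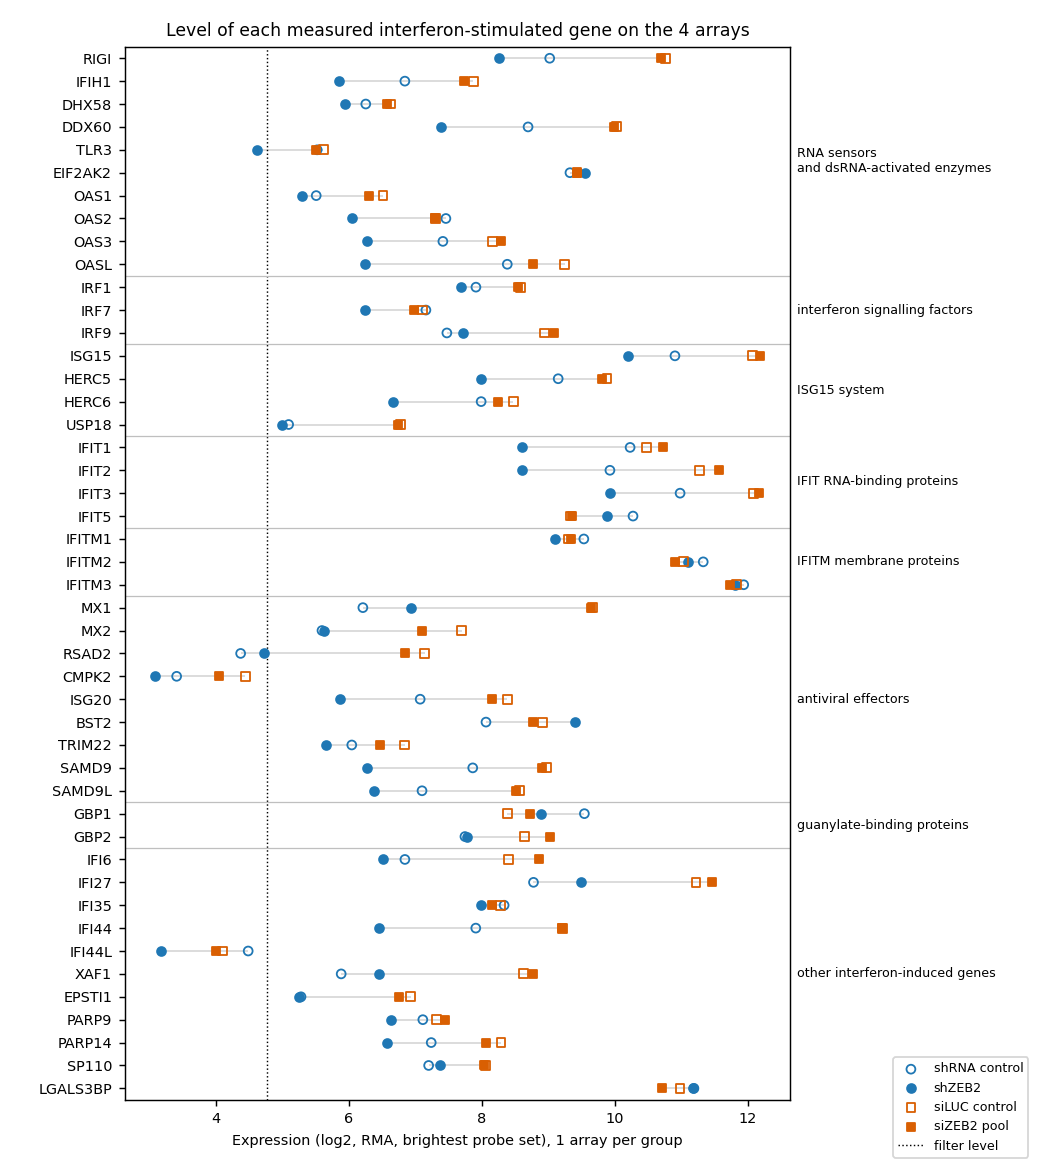
Log2 expression (x axis) of each measured member (y axis, grouped by role) on the 4 arrays, with circles for the shRNA arrays, squares for the siRNA arrays, open symbols for controls and filled ones for ZEB2 knockdowns; the dotted line is the filter level of 4.77. The squares of a gene nearly coincide, and for 33 of the 46 members both lie to the right of both circles.

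Among the 10 RNA sensors and enzymes activated by double-stranded RNA, 4 were 2-fold lower in the stable knockdown by their brightest probe sets (2.08% of all genes). A difference below 0 was seen for 9 of the 10, where 46.6% of all genes were above 0. OASL, an oligoadenylate synthetase-like protein that binds RIGI, had the lowest difference of all members. It read 8.38 in the shRNA control, 6.24 in shZEB2, 9.25 in the siLUC control and 8.78 in the siZEB2 pool. The difference was -2.15 in the stable pair and -0.47 in the transient pair, and shZEB2 was the low array. DDX60, a helicase that assists RIGI, read 8.70 in the shRNA control, 7.39 in shZEB2, 10.02 in the siLUC control and 9.99 in the siZEB2 pool, a difference of -1.31 and then -0.037. OAS2 and OAS3 make the oligoadenylates that switch on RNase L. OAS2 read 7.46, 6.05, 7.30 and 7.29 in the same order of arrays, so that the control and both siRNA arrays lay together and shZEB2 below them by 1.41 against its control. OAS3 read 7.42, 6.27, 8.16 and 8.28, a difference of -1.15 in the stable pair, but its dimmer probe set differed by -0.0094. The dimmer probe sets of OAS2 differed by -1.19 and -0.30 in that pair.

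The cytoplasmic receptors RIGI and IFIH1, which detect viral RNA and signal through MAVS, were short of 2-fold in the stable pair. RIGI read 9.02 in the shRNA control, 8.26 in shZEB2, 10.77 in the siLUC control and 10.70 in the siZEB2 pool. Its difference was -0.76 in the stable pair and 1.74 between the controls, and both siRNA arrays stood above both shRNA arrays. IFIH1, just inside the 2-fold line, read 6.84, 5.85, 7.87 and 7.73, with -0.995 in the stable pair and 1.03 between the controls. OAS1 read 5.51, 5.30, 6.51 and 6.30 and was 2-fold apart between the controls only, at 1.004. DHX58, a regulator of RIGI, differed by -0.31 in the stable pair and 0.37 between the controls, and TLR3, the endosomal sensor, by -0.91 and 0.092. EIF2AK2, the kinase PKR that halts translation, was the only one of the 10 above 0 in the stable pair. Its brightest probe set, of the cross-hybridising class, was flat, at 9.33, 9.55, 9.43 and 9.43. Another read 9.08, 9.56, 9.35 and 8.84, with 0.48 in the stable pair and -0.52 in the transient pair.

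The IFIT proteins bind viral RNA ends and block its translation. IFIT1 read 10.23 in the shRNA control, 8.60 in shZEB2, 10.48 in the siLUC control and 10.72 in the siZEB2 pool, a difference of -1.63 in the stable pair against 0.24 in the transient pair. IFIT2 read 9.93, 8.61, 11.28 and 11.57 and IFIT3 10.98, 9.93, 12.09 and 12.18 in the same order of arrays, with stable differences of -1.32 and -1.05. For these 3 genes, by their brightest probe sets, the order was shZEB2 lowest, the shRNA control next and the siRNA arrays highest. Between the controls IFIT2 and IFIT3 were higher by 1.35 and 1.10 and IFIT1 by 0.25. The other IFIT2 probe set read 8.82, 7.73, 8.88 and 8.76, with -1.09 in the stable pair and 0.063 between the controls, so the control difference of IFIT2 rests on its brightest probe set. IFIT5 went another way, at 10.28, 9.89, 9.34 and 9.36, lower on the siRNA arrays by 0.94 between the controls. By their brightest probe sets all 4 IFIT genes were above 0 in the transient pair, by at most 0.30, where 46% of all genes were above 0. The dimmer probe sets of IFIT2, IFIT3 and IFIT5 were below 0 there, at -0.12, -0.14 and -0.12.

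ISG15 is a ubiquitin-like protein attached to other proteins by the ligase HERC5, and USP18 removes it and restrains the interferon receptor. ISG15 read 10.91 in the shRNA control, 10.20 in shZEB2, 12.07 in the siLUC control and 12.19 in the siZEB2 pool, differences of -0.71 in the stable pair, 0.12 in the transient pair and 1.16 between the controls. HERC5 read 9.15, 7.99, 9.89 and 9.81 and was lower by 1.16 in the stable pair. HERC6, a relative of HERC5, read 7.99, 6.66, 8.47 and 8.24 and was lower there by 1.33. USP18 did not share this, reading 5.09, 4.99, 6.78 and 6.74, nearly level within each pair and 1.69 higher in the siLUC control. Of the signalling factors measured, IRF9, a DNA-binding factor of the interferon response, read 7.48, 7.71, 8.94 and 9.09, 0.24 in the stable pair and 1.46 between the controls. IRF7, the factor that amplifies interferon production, differed by -0.92 in the stable pair and -0.047 between the controls. IRF1 differed by -0.23 and 0.67.

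Direct antiviral effectors split into those that were lower in the stable knockdown and those that were not. SAMD9, a restriction factor of poxviruses, read 7.86 in the shRNA control, 6.28 in shZEB2, 8.97 in the siLUC control and 8.90 in the siZEB2 pool, lower by 1.59 in the stable pair. ISG20, an exonuclease, read 7.07, 5.87, 8.38 and 8.16 in that order, lower by 1.20. In both genes shZEB2 lay below the other 3 arrays, and the siRNA arrays stood highest. MX1, a GTPase that traps viral nucleocapsids, read 6.21 in the shRNA control, 6.94 in shZEB2, 9.67 in the siLUC control and 9.65 in the siZEB2 pool. It was 0.73 in the stable pair and 3.46 between the controls, the highest control difference of any member. Its relative MX2 read 5.60, 5.63, 7.70 and 7.10, with 0.033 in the stable pair and 2.10 between the controls. RSAD2, or viperin, which makes a chain-terminating nucleotide, read 4.37, 4.73, 7.14 and 6.85, with 0.35 and 2.77. Both shRNA arrays of RSAD2 lay under the filter level, and CMPK2, its partner kinase, lay there on all 4 arrays, at 3.41, 3.09, 4.44 and 4.05.

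BST2, or tetherin, which holds budding virions at the cell surface, read 8.06 in the shRNA control, 9.40 in shZEB2, 8.91 in the siLUC control and 8.77 in the siZEB2 pool. It was higher by 1.33 in the stable knockdown, the reverse of SAMD9 and ISG20, and shZEB2 was its highest array. SAMD9L, a relative of SAMD9, read 7.10, 6.38, 8.57 and 8.51 and differed by -0.72 in the stable pair and 1.47 between the controls, and TRIM22 by -0.39 and 0.80. By their brightest probe sets, all 9 effectors measured were below 0 in the transient pair, by at most 0.60 in size, and above 0 between the controls. Of all genes 46% were above 0 in the transient pair and 54% between the controls. A dimmer SAMD9 probe set was at 0.10 in the transient pair, and a dimmer SAMD9L probe set at -1.69 between the controls. The IFITM proteins, which stop viral entry at membranes, were flat. IFITM1, IFITM2 and IFITM3 had stable differences of -0.44, -0.23 and -0.13 and control differences of -0.23, -0.30 and -0.10. These near-identical genes can share probes, so their values are uncertain, and the IFITM2 and IFITM3 probe sets are of the cross-hybridising class (names ending in _x_at).

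The guanylate-binding proteins, induced chiefly by interferon gamma, did not share a direction. GBP1 read 9.54 in the shRNA control, 8.89 in shZEB2, 8.38 in the siLUC control and 8.72 in the siZEB2 pool, lower in the siLUC control by 1.16 and in shZEB2 by 0.65. GBP2 read 7.75, 7.78, 8.64 and 9.03, level in the stable pair at 0.034 and higher in the siLUC control by 0.89. Both were above 0 in the transient pair, at 0.34 and 0.39. Another GBP1 probe set read 9.04, 8.51, 8.09 and 9.02, with 0.93 in the transient pair.

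Of the 11 other interferon-induced genes, IFI44 and IFI44L, a neighbouring pair of related genes, were 2-fold lower in the stable knockdown. IFI44 read 7.91 in the shRNA control, 6.46 in shZEB2, 9.21 in the siLUC control and 9.21 in the siZEB2 pool, a difference of -1.45. IFI44L read 4.49, 3.18, 4.10 and 3.99, a difference of -1.31 that lay wholly under the filter level. IFI27, a mitochondrial and nuclear-envelope protein, read 8.78 in the shRNA control, 9.49 in shZEB2, 11.22 in the siLUC control and 11.46 in the siZEB2 pool, which was 0.71 in the stable pair and 2.44 between the controls. XAF1, an antagonist of the apoptosis inhibitor XIAP, read 5.89, 6.45, 8.63 and 8.77 in the same order, with 0.56 and 2.74. In both genes, by these probe sets, shZEB2 lay above its control and both siRNA arrays well above either. A further XAF1 probe set read 6.71, 7.13, 7.21 and 7.56, with a control difference of 0.50, and there the siLUC control barely exceeded shZEB2. IFI6 read 6.84, 6.52, 8.40 and 8.86, EPSTI1 5.28, 5.26, 6.93 and 6.75 and PARP14 7.24, 6.57, 8.29 and 8.06. These 3 were short of 2-fold in the stable pair, at -0.33, -0.023 and -0.67, and 2-fold higher in the siLUC control, at 1.55, 1.65 and 1.05. SP110 differed by 0.17 and 0.85, PARP9 by -0.48 and 0.20, IFI35 by -0.35 and -0.059, and LGALS3BP by -0.0077 and -0.21. A dimmer PARP9 probe set had the opposite signs, at 0.27 and -0.24. A dimmer EPSTI1 probe set, under the filter level on both shRNA arrays, differed by 0.49 and 1.54.

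**Figure D3:**
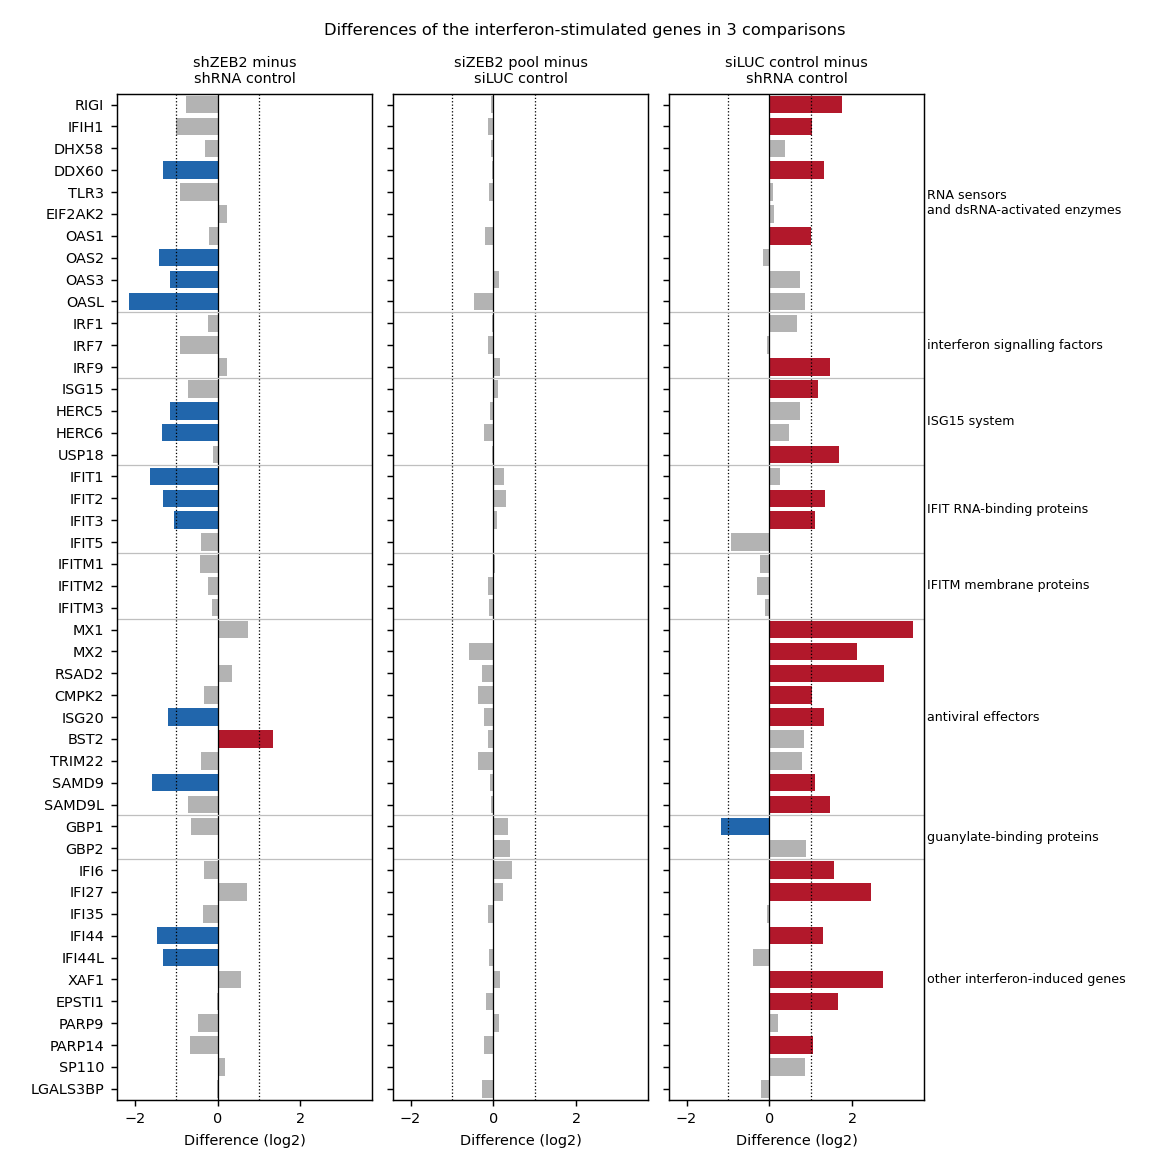
Difference in log2 units (x axis) of each measured member (y axis, grouped by role) in the 3 comparisons; blue bars are at least 2-fold lower, red bars at least 2-fold higher, grey bars less than 2-fold, and dotted lines mark 2-fold. The stable pair has 13 blue bars and 1 red bar (BST2), the transient pair has only grey bars, and between the controls there are 22 red bars and 1 blue bar (GBP1).

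Setting the stable and the control differences side by side gave 3 sets of members, described with no test since they share an array. IFIT2, IFIT3, ISG20, IFI44, DDX60 and SAMD9 were 2-fold lower in shZEB2 and 2-fold higher in the siLUC control, a combination found for 0.119% of all genes past the filter. OASL, OAS2, OAS3, IFIT1, IFI44L, HERC5 and HERC6 were 2-fold lower in shZEB2 with a control difference short of 2-fold (0.981% of all genes). The last set of 16 members, among them MX1, MX2, RSAD2, XAF1, IFI27, USP18 and EPSTI1, was short of 2-fold in the stable pair and 2-fold higher in the siLUC control (8.81% of all genes). Of the 46 measured members, 15 were short of 2-fold in all 3 differences by their brightest probe sets, against 82.7% of all genes. Among these, dimmer probe sets passed 2-fold between the controls for IRF1 (1.58), GBP2 (1.37), SP110 (1.18 and 1.47) and EIF2AK2 (-1.67). A dimmer TLR3 probe set did so in the stable pair, at -1.02.

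Several members are neighbours in the genome, and neighbours did not always go together. Of 12 adjacent pairs of members in the RefSeq gene order of GRCh38.p14, HERC5 and HERC6 and IFIT2 and IFIT3 were 2-fold lower together in the stable pair, as were OAS3 and OAS2 and IFI44L and IFI44. OAS1, beside OAS3, differed by -0.21 against -1.15, and IFIT5, beside IFIT1, by -0.39 against -1.63. MX2 and MX1 shared their direction between the controls, at 2.10 and 3.46, and GBP1 and GBP2 were opposite, at -1.16 and 0.89.

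A common effect of knockdown was tested over all 4 arrays with limma, with method as a covariate, so that the stable and transient pairs stand as the replicates and 1 residual degree of freedom is left. After Benjamini-Hochberg adjustment over all 15082 genes, limma called 0 members and 0 genes (0% of all), and the smallest adjusted p was 0.971. At an unadjusted p under 0.05 it gave 384 genes, 1 member among them, which was lower with knockdown, as were 1.78% of all genes at that p. For the members this is 1 of 44 (2.27%), near the share of all genes. That member was OASL, with a mean difference of -1.31 ± 0.46 (SE), an unadjusted p of 0.0479 and an adjusted p of 0.971 in limma, lower in both pairs. ZEB2 itself did not pass this test, with an adjusted p of 0.971, so a member missing it is not shown to be unchanged. Whether the stable and transient differences of a member differ from each other could not be tested with 1 array per group.

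The same limma fit tested the siRNA arrays against the shRNA arrays, 2 of each, which measures method and all that goes with it and not ZEB2. It called 13 of the 44 members past the filter, all higher on the siRNA arrays, against 4.67% of all genes called higher. No member was called lower, where 2.22% of all genes were, and 1 member had an unadjusted p under 0.05 in that direction, IFIT5, against 12% of all genes. MX1 differed by 3.08 ± 0.25 (SE; adjusted p = 0.0346 in limma), XAF1 by 2.53 ± 0.19 (0.0334), RSAD2 by 2.45 ± 0.22 (0.0359), IFI27 by 2.21 ± 0.20 (0.0355) and USP18 by 1.71 ± 0.14 (0.0346). Both siRNA arrays were above both shRNA arrays for each of these 5 genes, and they were called under every alternative run. RSAD2 lay under the filter level on both shRNA arrays and passed the filter only through the siRNA arrays, where it is high, so its call in the filtered fit is a description. It was also called with no filter. The other 8 called members were RIGI, MX2, IFI6, SAMD9L, EPSTI1, IRF9, PARP14 and OAS1, with adjusted p in limma between 0.0375 and 0.0497. Their calls lie near the threshold of 0.05, and the count ran from 5 to 24 members over the alternatives. DDX60, IFIT2, IFIT3, ISG15 and ISG20 were among those that missed it, with adjusted p in limma between 0.0519 and 0.0663. The residual of this fit is the gap between the stable and transient differences, so a member lower in shZEB2 alone gets a larger SE. It was 0.36 for DDX60 and 0.44 for IFIT2, beside 0.14 for USP18.

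Members with several probe sets were measured more than once on each array. Over 1 probe set reaching the filter level was present for 22 members, and 18 of them had 1 sign in the stable pair over all such probe sets. OASL (-2.15 and -2.44), ISG20 (-1.20 and -1.47) and IFIT2 (-1.32 and -1.09) were 2-fold lower by both of theirs, and RIGI lay between -0.76 and -0.52 over its 3. IFI44 was read differently by its 2 probe sets. The dimmer one read 4.06, 3.99, 7.28 and 7.17 in the order of arrays above, level in the stable pair and 3.22 higher in the siLUC control. Both of its shRNA values lay under the filter level. SAMD9L and EIF2AK2 each had 1 probe set that was lower in the siLUC control, by 1.69 and 1.67, against their others. Averaging a gene's probe sets left 8 of the 13 measured members 2-fold lower in the stable pair, without IFIT3, OAS2, OAS3, IFI44 and HERC6.

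**Figure D4:**
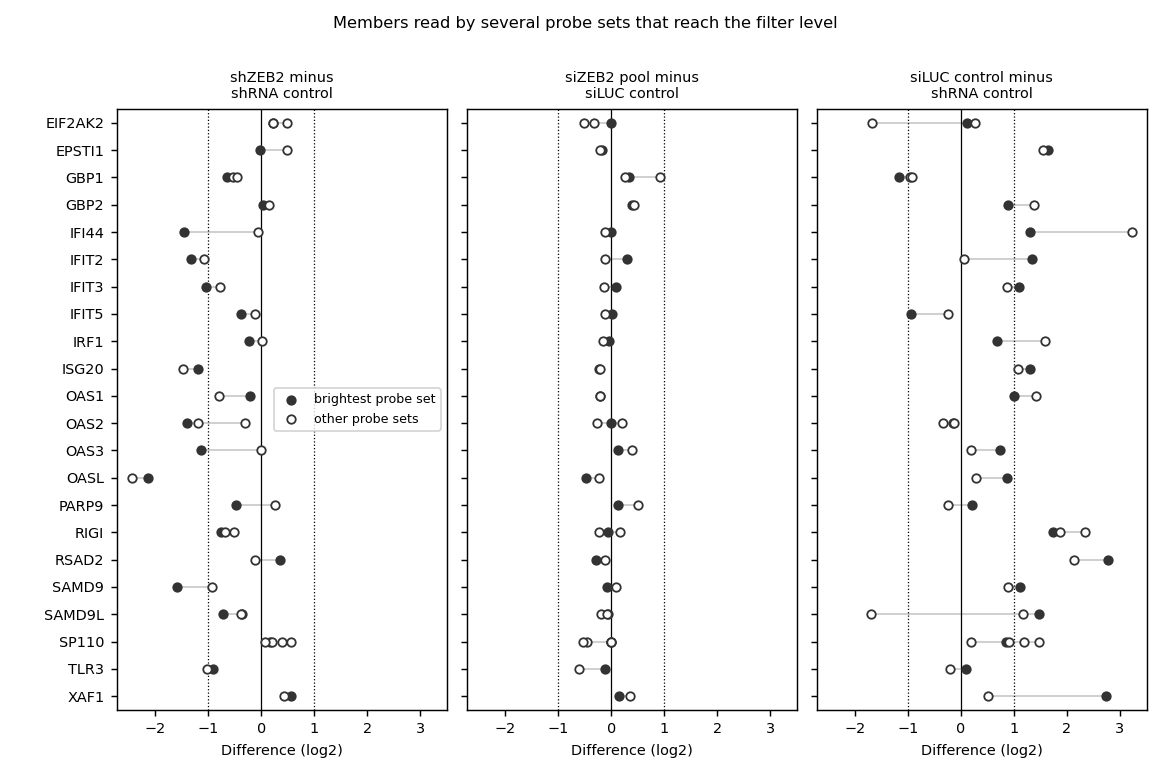
Difference in log2 units (x axis) by probe set for the 22 members (y axis) with over 1 probe set reaching the filter level, in the 3 comparisons; filled points are the brightest probe set, open points the others, grey lines join the probe sets of a gene, and dotted lines mark 2-fold. Probe sets of a gene lie more than 1 log2 unit apart for IFI44, OAS2 and OAS3 in the stable pair and for SAMD9L, XAF1, EIF2AK2, IFI44, IFIT2 and SP110 between the controls.

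Other genes of the pathway were set beside the members, 73 listed and 66 measured. Interferon genes themselves lay at the dim end, and of 7 measured only IFNL1 passed the filter, at 4.65, 4.63, 4.76 and 4.85. IFNB1, the type I interferon that most cells can make, read 4.16, 3.91, 3.997 and 4.29, under the filter level throughout. Of 9 receptors and kinases, 0 were 2-fold apart in either knockdown pair and 3 were 2-fold higher in the siLUC control. Over all genes the shares were 2.08% lower and 2.39% higher in the stable pair, 0.126% and 0.0464% in the transient pair and 10.8% higher between the controls, so 0 of 9 in the pairs is near the background. The 3 genes higher in the siLUC control were IL10RB (1.51) and IFNLR1 (1.13), which together form the receptor of lambda interferons, and the kinase gene JAK1 (1.13). The type I receptor genes IFNAR1 and IFNAR2 differed by 0.22 and 0.13 between the controls.

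Of 5 negative regulators 0 were 2-fold apart in any comparison, where 17.3% of all genes were in at least 1. The largest control differences were those of SOCS3 (-0.91) and PIAS1 (-0.29). Of 19 sensors, adaptors and kinases upstream of interferon, again 0 were 2-fold apart, beside the same 17.3%. Counts in lists this small are descriptions. IRF3, the factor that first switches on interferon genes, came nearest at -0.97 between the controls, and IRF5 was at 0.94. Among 26 further interferon-induced genes, LY6E alone was 2-fold apart in the stable pair, at 1.07, the same direction as BST2. Over all genes 2.39% were 2-fold higher there and 2.08% lower, so 1 of 26 is near the background. Between the controls TMEM140 (1.79), SHFL (1.25) and PARP12, between these in size, were 2-fold higher and TRIM14 (-1.45) 2-fold lower, so 3 and 1 of 26, shares near those of all genes (10.8% and 4.99%). The medians of these 26 genes were -0.17 in the stable pair, -0.00063 in the transient pair and 0.17 between the controls, smaller in size than the members' own.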

How the data were processed

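Expression was measured on 4 Affymetrix U133 Plus 2 arrays of MDA-MB-231 cells, 1 per group. The residual behind the limma p-values is therefore the gap between the stable and transient knockdown differences, moderated over all genes. It is not a spread of replicates. The deposited values are log2 intensities that the authors computed by RMA (affy, as named in the submitters' processing notes), which makes them comparable between arrays and compresses differences among dim probe sets; versions are not given in the sources used here. Of 54675 probe sets, 41097 were annotated with 1 symbol, 1801 with several and 11777 with none, and only the first were used. Each gene was read by its probe set with the highest mean. Genes were kept if any array reached the 40th percentile. Differences were taken within pairs and between controls, and limma 3.58.1 (R 4.3.3) fitted knockdown and method over the 4 arrays with 1 residual degree of freedom. The fit was tested on simulated data. Members 2-fold apart in any difference were given all 4 values; most others are given by differences, and EIF2AK2, IFIT5 and GBP2 were given in full after their values were seen. Member and pathway lists and tests were chosen with earlier results of these data known. Alternatives changed the fold, filter, probe-set rule, scaling and model. Promoter windows came from RefSeq, GRCh38.p14. No other columns of values were present or used.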

Additional observations from a re-analysis of the deposited data

How the results depend on the processing

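The 12 members past the filter at least 2-fold lower in the stable pair became 20 at 1.5-fold, 3 at 3-fold and 7 with the mean of a gene's probe sets. The 1 member higher there became 3 at 1.5-fold and 0 at 3-fold. In the transient pair the count lower went from 0 to 1 at 1.5-fold. Between the controls the 21 higher members became 8 at 3-fold. The 1 lower member became 2 at 1.5-fold and 0 at 3-fold, with the mean or median of probe sets, or without _x_at and _s_at probe sets. The control median of 0.88 became 0.77 with the mean of probe sets, 0.72 with their median and 1.03 without _x_at and _s_at probe sets. IFIH1 reversed between the controls, from 1.03 to -0.27, with the median of its probe sets. Its dimmer probe sets lay under the filter level on every array. They read 3.40 and 3.15 in the shRNA control, and 2.95 and 3.13 in the siLUC control. The median of IFIH1 is therefore a value near background, and its reversal does not bear on the brightest probe set. In limma the 13 members called between methods became 20 with the mean of probe sets, 5 with no filter, 22 with the 60th percentile as filter, 23 with median centring, 24 with quantile normalization, 22 with cyclic loess and 23 with knockdown left out of the model. The cause of the other shifts was not tested. The 13 measured members lower in the stable pair were the same genes under all 3 scalings. The knockdown fit pairs the arrays by method; no pairing by replicate number exists, since each group has 1 array. Leaving out an array empties a group, so it was not run. With 1 array per group the spread within a group is unknown, and values under the filter level of 4.77 lie near background.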
